A study of Mus musculus with 40 samples.

Results

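Co-cultures of 4T1 cells with T cells on collagen I were compared with co-cultures on collagen IV. The comparison holds 7 of the 40 libraries of the series, 3 on collagen I (experiments 2, 4 and 5) and 4 on collagen IV (experiments 2, 3, 4 and 5), taken by their labelled condition, coat and experiment number. 4T1 is a mouse mammary carcinoma line, here plated at 10000 cells per cm2 on plastic that had been coated with either collagen at 250 µg/ml. After a night, T cells from C57Bl6 spleens were added at 80000 per cm2 together with interleukin 2 at 30 U/mL, and RNA was taken 24 h later. How the T cells were isolated is not given in the sources used here. Free and trypsinised cells were pooled, so each library is a mixture of carcinoma and T cell RNA in which no gene is assigned to a cell. The 8 libraries of 4T1 alone on the same coats, 4 on each collagen (experiments 2, 3, 4 and 5), received interleukin 2 and no T cells. The study asked how the matrix under carcinoma cells bears on their clearance by T cells.

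Collagen I is the fibre-forming collagen of interstitial tissue and of the stroma of breast tumours, whereas collagen IV forms the sheet-like network of basement membranes. Cells bind both through the integrins that pair the beta 1 chain with the alpha 1 or alpha 2 chain and through the discoidin domain receptors, and leukocytes also carry the inhibitory collagen receptor Lair1. Carcinoma cells cross fibrillar collagen with membrane-bound and secreted proteases, among them the collagenase Mmp14 and the plasminogen system, in which urokinase bound to its receptor makes plasmin.

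The libraries differed far more between experiments in T cell RNA than between the coats. Levels are given per M, that is, reads divided by the scaled library size in mega-reads. The 25 T cell identity markers (T cell receptor chains, co-receptors and proximal kinases) summed to 45.3, 1512 and 27.5 per M on collagen I in experiments 2, 4 and 5, against 44.9, 4232 and 32.9 per M on collagen IV in the same experiments and 31.2 per M on collagen IV in experiment 3. In 4T1 alone on the collagens the sum was 4.534 to 6.665 per M. The coats thus overlapped, with close sums in experiments 2 and 5 and a much lower sum on collagen I than on collagen IV in experiment 4. There, collagen IV was the library that stood apart for the marker Ptprc, at 658.8 per M. Ptprc was at 228.6 per M on collagen I and at 212.9 to 276.5 per M in the remaining co-cultures of that experiment. In these mixed samples, differences in T cell number, in RNA per T cell and in carcinoma RNA cannot be told apart. The 23 carcinoma epithelial markers (keratins, claudins, Epcam and others) summed to 4336, 2778 and 3358 per M on collagen I, against 4660, 2145 and 3257 per M on collagen IV in experiments 2, 4 and 5 and 3993 per M in experiment 3. The order of the coats in this sum was reversed in experiment 2. The B cell sum (11 markers) in experiment 4 was 52.8 per M on collagen I and 148.8 per M on collagen IV, and the erythroid and platelet sum (8 markers) was 10.8 and 51.7 per M on the same coats. Elsewhere the B cell sum was at most 3.37 per M and the erythroid sum at most 2.15 per M, so experiment 4 stood apart in both. No measured marker of these lists was at 0 in all 7 libraries. The 4 nuclear RNAs read as proxies of RNA quality moved with experiment 4 too: their mean log2 level differed by 0.04, −1.69 and −0.31 in the pairs of experiments 2, 4 and 5. Nuclear RNAs also differed with the cells present. In experiment 4, Xist was at 19.0 per M on collagen I and 211.0 per M on collagen IV in co-culture. In 4T1 alone it was at 0.133 and 0.0986 per M on the same coats. RNA quality and cell mixture therefore cannot be told apart here. Depth was 30.3 to 36.2 M assigned reads on collagen I and 19.0 to 38.1 M on collagen IV, apart from 239.1 M in collagen IV experiment 5. A count of 0 therefore allows up to 0.0124 to 0.158 per M, which covers counting error only.

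**Figure D1:**
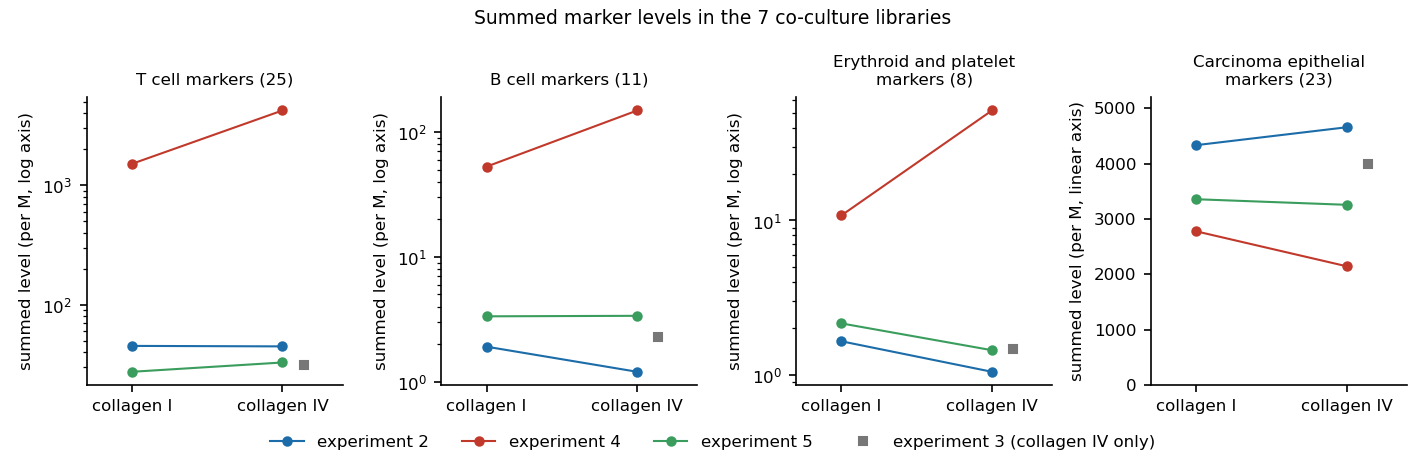
Summed levels of 4 marker lists in each co-culture library, per M, with collagen I left of collagen IV and lines joining the coats of an experiment (log axes for T cell, B cell and erythroid markers, a linear axis for carcinoma markers). The square is collagen IV of experiment 3, which has no collagen I partner. In experiment 4 the T cell sum was 1512 per M on collagen I and 4232 per M on collagen IV, while in experiments 2 and 5 the coats lay close together.

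The collagens were compared gene by gene within experiments with limma on log2(per M + 1), fitted to all 18 co-cultures of the series with the experiment as a block. Collagen IV of experiment 3 is the single co-culture of its experiment, so the block takes it up and it adds nothing to these differences; its level is still printed beside the others. Of 14486 genes tested, 121 (0.835%) passed a Benjamini-Hochberg adjusted p of 0.05. On collagen I, 107 (0.739%) were higher and 14 (0.0966%) were lower. The changes were modest, with a median size of 0.46 on the log2 scale. Each of the 121 had the same sign in 3 of 3 pairs, as did 3932 (27.1%) of all genes tested. The 3 collagen I and the 4 collagen IV libraries did not overlap for 51 of the 121, 47 higher and 4 lower. Over all genes tested they did not overlap for 338 (2.33%), 229 (1.58%) higher and 109 (0.752%) lower. Without experiment 4, whose pair differed in T cell RNA, 115 genes passed, 82 higher and 33 lower, and 71 of the 121 were among them. All 121 kept their direction there. The test of edgeR on recovered reads passed 126 genes, 95 higher and 31 lower. The split between higher and lower genes therefore moved with experiment 4 and with the test.

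The count depended on experiments 2 and 5. The spread was estimated from all 18 co-cultures; in the 6 paired libraries alone 0 genes passed in limma, with 624 at an unadjusted p under 0.05, and without the experiment block 0 passed, with 402. Without experiment 2, 24 genes passed (23 higher, 1 lower), and without experiment 5, 0 passed in limma, with 1676 at an unadjusted p under 0.05. Leaving out single libraries gave 18 (collagen I of experiment 2), 39 (collagen I of experiment 4), 25 (collagen I of experiment 5), 573 (collagen IV of experiment 2) and 34 genes (collagen IV of experiment 5).

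In the plasminogen system, the gene of the urokinase receptor rose on collagen I. This gene, Plaur (mm10 chromosome 7, 24462484 to 24475968, plus strand), was at 158.2, 108.6 and 118.7 per M on collagen I in experiments 2, 4 and 5, against 109.4, 52.3 and 71.2 per M on collagen IV in those experiments and 83.4 per M in experiment 3. It was higher on collagen I in each pair, although collagen IV of experiment 2 just exceeded collagen I of experiment 4. Its log2 difference was 0.77 ± 0.09 (SE; limma adjusted p = 0.00174). Plau, which encodes urokinase itself, had a log2 difference of 0.61 ± 0.15 (limma adjusted p = 0.0955), did not pass and was higher in 3 of 3 pairs. The median over the 7 tested members of the list was 0.36, beside −0.03 over all genes tested.

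Matrix metalloproteinase genes and an inhibitor that works with them were higher on collagen I. Mmp14, the membrane-type collagenase (chromosome 14, 54431612 to 54445364, plus strand), was at 204.4, 150.4 and 157.2 per M on collagen I, against 144.0, 75.5 and 109.5 per M on collagen IV of experiments 2, 4 and 5 and 111.7 per M in experiment 3. The groups did not overlap, and the log2 difference was 0.67 ± 0.10 (limma adjusted p = 0.0102). Timp2, which at low amounts takes part with Mmp14 in the activation of gelatinase A (chromosome 11, 118301069 to 118355740, minus strand), had 436.6, 419.3 and 509.8 per M on collagen I, against 351.7, 247.9 and 368.7 per M on collagen IV and 340.5 per M in experiment 3. It too did not overlap, with a log2 difference of 0.51 ± 0.08 (limma adjusted p = 0.0124). Mmp11, stromelysin 3, rose by 0.54 ± 0.11 (limma adjusted p = 0.0465), with 14.3, 14.3 and 17.1 per M on collagen I, against 10.9, 7.76 and 12.3 per M on collagen IV and 9.38 per M in experiment 3. It shares exon sequence with a neighbouring gene, and it did not pass without experiment 4 (0.40 ± 0.13). The 14 other members tested did not pass; Mmp10 and Mmp3, which encode the stromelysins 2 and 1, had log2 differences of 1.116 ± 0.34 and 0.91 ± 0.40 and were higher in 3 of 3 pairs. The median of the 17 members was 0.15.

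**Figure D2:**
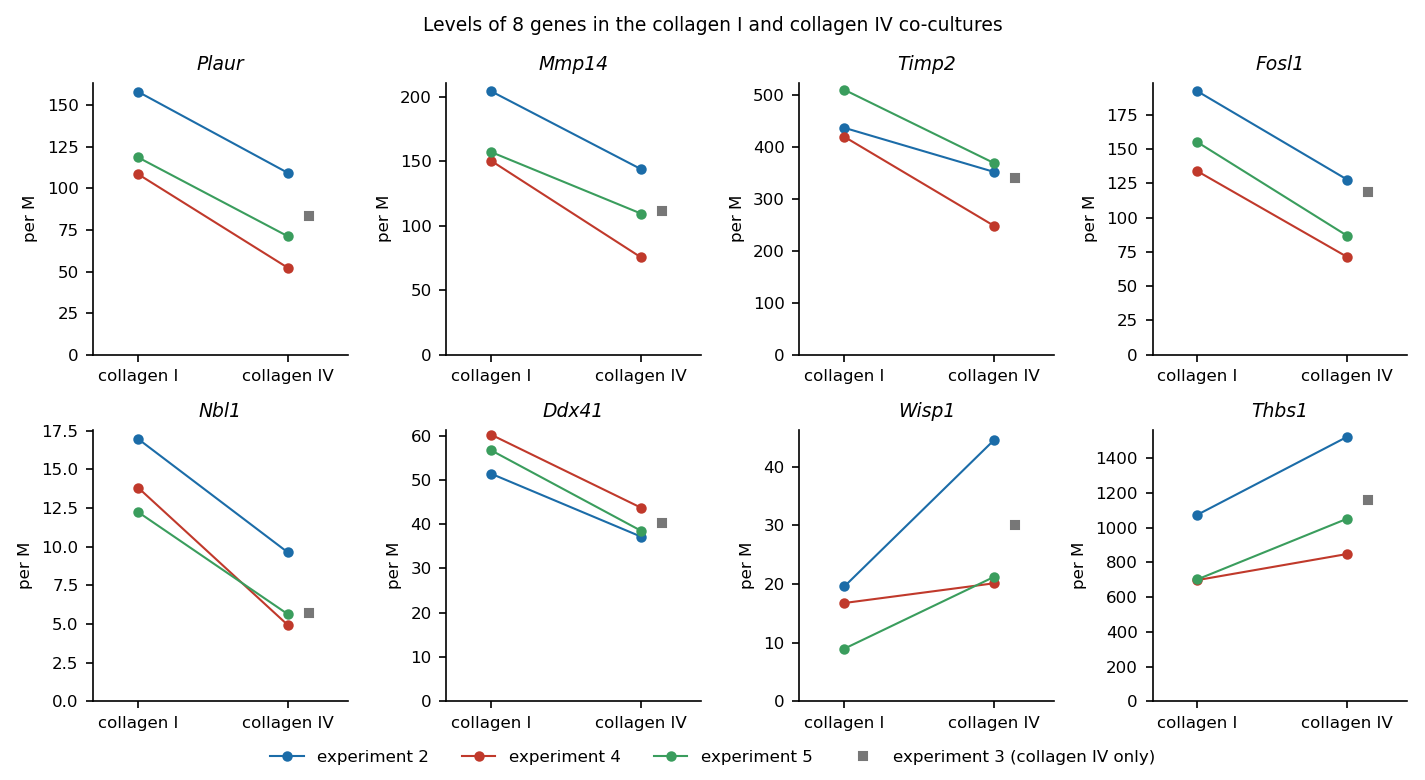
Levels per M of 8 genes in each co-culture library (linear axes from 0), with collagen I left of collagen IV, lines joining the coats of an experiment and a square for collagen IV of experiment 3. Plaur, Mmp14, Timp2, Fosl1, Nbl1 and Ddx41 were higher on collagen I in 3 of 3 pairs, and Wisp1 and Thbs1 were lower in 3 of 3. Experiment 2 was the highest for most of them on both coats.

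Transcription factor genes of the AP-1 family, which bind promoters of protease genes and answer to growth factor and adhesion signalling, gave 2 calls among 19 tested members of an AP-1 and immediate early list. Fosl1, the subunit Fra-1, was at 192.3, 133.9 and 155.1 per M on collagen I, against 127.8, 71.3 and 86.8 per M on collagen IV of experiments 2, 4 and 5 and 118.8 per M in experiment 3. The groups did not overlap, and the log2 difference was 0.77 ± 0.09 (limma adjusted p = 0.00181). Jun, the usual partner of Fra-1, had 174.9, 76.1 and 90.6 per M on collagen I, against 140.7, 58.9 and 68.4 per M on collagen IV and 97.4 per M in experiment 3. Its groups overlapped, while it was higher on collagen I in 3 of 3 pairs, with a log2 difference of 0.36 ± 0.06 (limma adjusted p = 0.0139). Scaled to carcinoma markers, Jun had 0.29 and did not pass (limma adjusted p = 0.397). The other AP-1 subunits Fos, Fosb, Fosl2, Junb and Jund, shown for completeness after their values were seen like the other uncalled list members below, did not pass, with log2 differences from −0.14 (Fos) to 0.21 (Fosb). Spry4, a feedback inhibitor of receptor tyrosine kinase signalling, had 0.53 ± 0.14 (limma adjusted p = 0.101) and passed when experiment 4 was left out. The median of the list was 0.08. Fosl1 and Jun have exons that overlap a neighbouring transcript. So do other called genes below, among them Thbs1, Epha1, St3gal4, Ddx41, Lama3, Ltbp2, Loxl3, Edn1, Tgfb2, Prss23 and Ikzf2. The library kit does not mark strand, so those reads cannot be told apart.

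The letters of the AP-1 site, TGACTCA or its reverse complement TGAGTCA, which do not overlap each other, were sought in RefSeq promoters (GRCm38.p6, 250 bases before to 50 after a start). They were found for 6 of the 81 higher genes with a promoter in that table (7.41%), for 1 of 6 lower genes and for 440 of 9531 genes tested (4.62%). The letters GGAATG or CATTCC of the TEAD site were found for 16 of the 81 (19.8%), for 3 of the 6 and for 1344 of the 9531 (14.1%). A match is a description of these windows and not a measured site. The promoters of Plaur, among the largest rises, and of Prss23, among the largest falls, both held the AP-1 letters and are shown to set a higher beside a lower gene. They run 5′ to 3′ with those letters in capitals, which begin 69 bases before the start in Plaur and 169 before the start used for Prss23. That Prss23 start lies inside the annotated gene (mm10 chromosome 7, 89507783 to 89527187, minus strand). Another Prss23 window holds the same letters 146 bases before its own start. The window of Plaur is chr7:24462233-24462532 on the plus strand and that of Prss23 chr7:89518132-89518431 on the minus strand.
Plaur: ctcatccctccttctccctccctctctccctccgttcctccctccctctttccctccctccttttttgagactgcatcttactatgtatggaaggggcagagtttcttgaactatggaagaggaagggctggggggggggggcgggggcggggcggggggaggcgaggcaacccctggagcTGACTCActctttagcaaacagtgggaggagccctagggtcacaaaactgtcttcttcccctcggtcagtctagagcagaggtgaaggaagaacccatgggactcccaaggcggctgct
Prss23: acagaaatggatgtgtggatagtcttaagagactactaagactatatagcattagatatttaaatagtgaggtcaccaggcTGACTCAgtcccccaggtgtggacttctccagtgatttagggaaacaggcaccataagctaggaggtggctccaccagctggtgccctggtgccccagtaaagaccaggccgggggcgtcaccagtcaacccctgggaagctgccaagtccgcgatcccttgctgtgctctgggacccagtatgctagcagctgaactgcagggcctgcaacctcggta

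Of 13 tested laminin and laminin-binding integrin genes, 2 passed as higher and none as lower, where 0.739% of all genes tested passed as higher. In the fit with experiment 4, 12 of the 13 lay above 0, and the median of all genes tested was −0.03. The mean log2 level of the list differed by 0.09, 0.39 and 0.22 in the pairs of experiments 2, 4 and 5. Lama3, the alpha chain of an epithelial laminin, had 30.8, 14.9 and 18.9 per M on collagen I, against 23.8, 7.91 and 9.57 per M on collagen IV and 18.5 per M in experiment 3, a log2 difference of 0.70 ± 0.12 (limma adjusted p = 0.024). Lamb3, its beta chain, had 176.6, 78.2 and 81.9 per M on collagen I, against 159.3, 56.5 and 57.3 per M on collagen IV and 99.2 per M in experiment 3, with 0.37 ± 0.07 (limma adjusted p = 0.0339). Both were higher in 3 of 3 pairs, and both overlapped between coats. Itgb4, the laminin-binding integrin beta 4 chain, had a log2 difference of 0.50 ± 0.15 and did not pass (limma adjusted p = 0.173). Without experiment 4, Lama3 passed (0.63 ± 0.11) and Lamb3 did not (0.33 ± 0.08). The list median was 0.20 with experiment 4 and 0.15 without it.

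Among matrix glycoproteins, the latent TGF-beta binding proteins and a thrombospondin went opposite ways. Ltbp2 rose by 0.41 ± 0.08, Ltbp4 by 0.57 ± 0.11 and Mfge8, a bridging protein for dying cells, by 0.32 ± 0.06 on the log2 scale (limma adjusted p = 0.0337, 0.0363 and 0.035). Without experiment 4, Ltbp4 passed, and Ltbp2 and Mfge8 did not (limma adjusted p = 0.0706 and 0.0775). Ltbp4 had 80.5, 50.7 and 77.4 per M on collagen I, against 59.1, 31.8 and 50.2 per M on collagen IV and 61.5 per M in experiment 3. Thbs1, thrombospondin 1, was at 1075, 698.2 and 702.4 per M on collagen I, against 1524, 848.6 and 1052 per M on collagen IV of experiments 2, 4 and 5 and 1160 per M in experiment 3. It fell by 0.46 ± 0.09 on the log2 scale (limma adjusted p = 0.0418). The 10 other tested members, fibronectin (Fn1, 0.05 ± 0.09) and tenascin C (Tnc, 0.06 ± 0.11) among them, did not pass, and the median of the 14 was 0.12. Of 13 collagen chains tested, Col18a1, the source of endostatin, rose by 0.64 ± 0.11 (limma adjusted p = 0.0242), with 167.4, 130.5 and 191.3 per M on collagen I, against 129.6, 72.2 and 116.9 per M on collagen IV and 129.5 per M in experiment 3. Col12a1, which coats collagen I fibrils, had 32.8, 11.8 and 11.1 per M on collagen I, against 45.9, 15.6 and 21.8 per M on collagen IV and 37.6 per M in experiment 3, a fall of 0.59 ± 0.11 (limma adjusted p = 0.0257). The collagen IV chains Col4a1 (0.09 ± 0.07) and Col4a2 (0.12 ± 0.07) did not pass. Among cross-linking and processing enzymes, 1 of 16 passed, Loxl3, a lysyl oxidase, with 9.77, 12.2 and 13.5 per M on collagen I, against 6.39, 5.46 and 8.98 per M on collagen IV and 4.95 per M in experiment 3. Its log2 difference was 0.71 ± 0.14 (limma adjusted p = 0.0388), and 0.54 ± 0.14 with no call without experiment 4.

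None of the tested receptors that bind collagen passed. Itga2, the collagen-binding integrin alpha 2 chain, had 188.7, 124.0 and 121.5 per M on collagen I, against 175.2, 73.8 and 114.9 per M on collagen IV and 156.9 per M in experiment 3 (0.31 ± 0.13; limma adjusted p = 0.319). Ddr2 had 144.4, 146.4 and 164.8 per M on collagen I, against 144.4, 115.4 and 193.1 per M on collagen IV and 160.6 per M in experiment 3 (0.04 ± 0.09). Ddr1 (0.01 ± 0.10), Itgb1 (0.12 ± 0.09) and Itga1 (0.23 ± 0.21) did not pass either, and their coats overlapped. The list counts 7 tested members, and its single call was Plaur, which binds urokinase and vitronectin and not collagen. Lair1 reached at most 0.54 per M on collagen I and 1.70 per M on collagen IV, both in experiment 4, and was too low to be tested. Of the integrins that bind RGD sequences, Itgb6, which activates latent TGF-beta, rose by 0.62 ± 0.11 (limma adjusted p = 0.0242; 1 of 7 tested), with 12.5, 8.58 and 7.22 per M on collagen I, against 7.64, 4.00 and 5.72 per M on collagen IV and 6.37 per M in experiment 3. Without experiment 4 its adjusted p was 0.0588. No member of the focal adhesion and actin list passed (0 of 26 by limma; median 0.09).

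Wisp1, Edn1, Tgfb2 and Pdgfb, which encode secreted signalling proteins, were lower on collagen I. Wisp1, of the CCN family, had 19.6, 16.7 and 8.96 per M on collagen I, against 44.5, 20.1 and 21.2 per M on collagen IV of experiments 2, 4 and 5 and 30.1 per M in experiment 3. Its coats did not overlap, and its log2 difference was −0.85 ± 0.16 (limma adjusted p = 0.0257), with −0.25 in the pair of experiment 4 and −1.15 and −1.16 in the pairs of experiments 2 and 5. Ctgf, a relative that was not called here (−0.39 ± 0.10; limma adjusted p = 0.11), passed without experiment 4 at −0.52. Edn1, endothelin 1, had 10.2, 6.84 and 3.56 per M on collagen I, against 18.9, 8.72 and 10.4 per M on collagen IV and 11.9 per M in experiment 3 (−0.82 ± 0.15; limma adjusted p = 0.0317). Tgfb2, a TGF-beta ligand, had 9.77, 12.7 and 10.2 per M on collagen I, against 17.5, 16.4 and 20.0 per M on collagen IV and 13.9 per M in experiment 3, with no overlap and a log2 difference of −0.68 ± 0.13 (limma adjusted p = 0.035). Pdgfb, a platelet-derived growth factor chain, had 159.8, 111.4 and 105.8 per M on collagen I, against 256.8, 138.6 and 158.3 per M on collagen IV and 205.8 per M in experiment 3, a fall of 0.52 ± 0.09 (limma adjusted p = 0.0154). These 4 genes were lower in 3 of 3 pairs, each least so in experiment 4.

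Nbl1, a secreted antagonist of bone morphogenetic proteins, showed the largest rise among genes that passed. It was at 17.0, 13.8 and 12.2 per M on collagen I, against 9.63, 4.93 and 5.63 per M on collagen IV of experiments 2, 4 and 5 and 5.69 per M in experiment 3. Its groups did not overlap, and the log2 difference was 1.02 ± 0.12 (limma adjusted p = 0.00174). Uncoated co-cultures of experiments 2, 4 and 5 averaged 8.90 ± 0.74 per M (SD, n = 3), nearer to collagen IV; the coats were not tested against plastic here. Nbl1 and Tgfb2 were the 2 members to pass among 18 tested genes of the TGF-beta pathway, whose median was −0.03. Errfi1, a feedback inhibitor of the EGF receptor, rose by 0.62 ± 0.13 (limma adjusted p = 0.0429) with 203.6, 165.2 and 187.2 per M on collagen I, against 161.7, 83.0 and 127.6 per M on collagen IV and 119.7 per M in experiment 3. The 8 other EGF family members did not pass, Tgfa (0.36 ± 0.13) and Hbegf (0.23 ± 0.10) among them, and without experiment 4 Errfi1 did not either (0.44 ± 0.10). Of 17 YAP and TEAD targets and partners, 1 passed, the TEAD cofactor Vgll4 (0.44 ± 0.09; limma adjusted p = 0.0422), with differences of 0.54, 0.10 and 0.69 in the pairs of experiments 2, 4 and 5. Scaled to carcinoma markers, Vgll4 did not pass (0.38; limma adjusted p = 0.701).

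Other genes with large or close pair differences belong to other processes. Ddx41, a DEAD-box helicase with roles in splicing and DNA sensing (chromosome 13, 55530410 to 55536658, minus strand), was at 51.4, 60.2 and 56.7 per M on collagen I, against 37.2, 43.7 and 38.5 per M on collagen IV and 40.4 per M in experiment 3. Its pair differences were 0.46, 0.45 and 0.55 and the fitted log2 difference 0.48 ± 0.06 (limma adjusted p = 0.00174). Scaled to carcinoma markers, Ddx41 had 0.42 and did not pass (limma adjusted p = 0.311). Its mean of 56.1 ± 4.44 per M (SD, n = 3) on collagen I compares with 39.96 ± 2.83 (SD, n = 4) on collagen IV and 37.7 ± 3.09 (SD, n = 3) on uncoated plastic in co-culture. St3gal4, a sialyltransferase, had 124.6, 109.6 and 107.2 per M on collagen I, against 75.4, 52.3 and 71.2 per M on collagen IV and 71.2 per M in experiment 3 (0.79 ± 0.10; limma adjusted p = 0.00336). Cmtm3 rose by 0.76 ± 0.10, Scarf2, a scavenger receptor family member, by 0.77 ± 0.10, Rab31, a small GTPase of endosomal transport, by 0.73 ± 0.11 and Phlda2 by 0.72 ± 0.10. Tns4, a focal adhesion protein of the tensin family (0.76 ± 0.15), and Npnt, the integrin ligand nephronectin (0.71 ± 0.15), were also high. They completed the 12 largest rises among called genes of at least 5 per M on average. Some called genes below that level, such as Atp2c2 (0.86) and Syt17 (0.78), rose more than Npnt. Of these 8 genes, 7 did not overlap between coats; Scarf2, with 98.3, 56.4 and 68.4 per M on collagen I, against 59.1, 36.1 and 34.5 per M on collagen IV and 52.4 per M in experiment 3, did.

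Among the genes that were lower, Epha1, an ephrin receptor of epithelial cells (chromosome 6, 42358487 to 42373268, minus strand), did not overlap between coats. It was at 46.3, 30.8 and 26.4 per M on collagen I, against 79.8, 51.8 and 49.8 per M on collagen IV and 62.1 per M in experiment 3, a log2 difference of −0.80 ± 0.08 (limma adjusted p = 0.00174). Its pair differences were −0.77, −0.73 and −0.89. Prss23, a secreted serine protease, fell by 0.74 ± 0.13, Pmp22, a four-pass membrane protein, by 0.60 ± 0.09 and Masp1, a protease of the lectin complement pathway, by 0.59 ± 0.09. Ikzf2, which encodes Helios, a transcription factor of regulatory T cells, had 2.86, 6.36 and 2.79 per M on collagen I, against 4.10, 17.1 and 5.25 per M on collagen IV and 3.21 per M in experiment 3. It fell by 0.81 ± 0.14 (limma adjusted p = 0.0242) but not past the threshold without experiment 4 (−0.56 ± 0.14; adjusted p = 0.101). Ikzf2 was also read in 4T1 alone, at 3.306 ± 1.25 per M on collagen I and 4.77 ± 1.10 per M on collagen IV (SD, n = 4 each), so its reads are not T cell reads only.

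**Figure D3:**
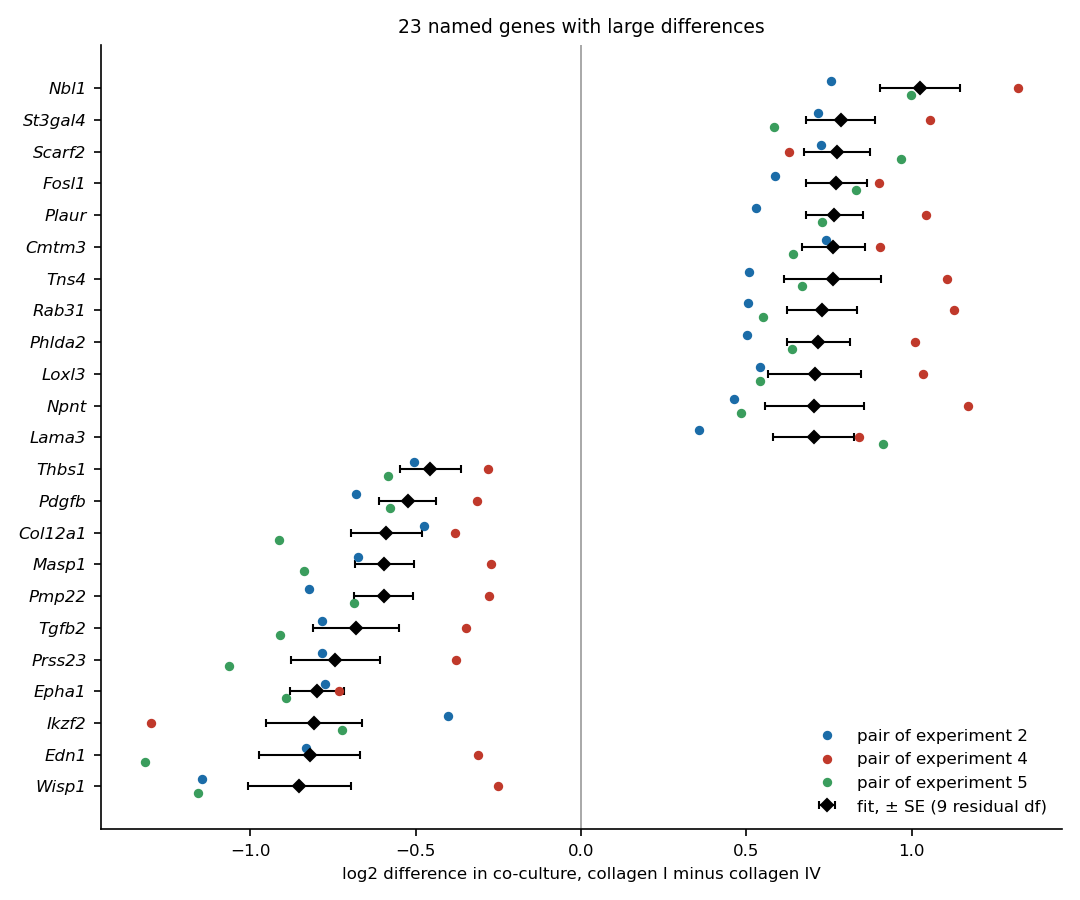
Log2 differences in co-culture, collagen I minus collagen IV, for 12 rises and 11 falls among the largest of genes that passed with at least 5 per M on average; coloured points are the 3 pairs and diamonds the limma fit with SE. All 69 points lie on the side of their fit. For 10 of the 11 falls the pair of experiment 4 was the nearest to 0, the exception being Ikzf2, and for 10 of the 12 rises it was the farthest from 0.

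No tested member of the T cell lists passed, apart from Ikzf2. All 25 identity markers lay below 0 with a median of −0.54, and 0 of 25 passed in limma. This rested on experiment 4: the mean log2 level of the list differed by 0.02, −1.51 and −0.13 in the pairs of experiments 2, 4 and 5, and without experiment 4 the median was −0.05 over the 21 markers then tested. Ptprc, the leukocyte phosphatase CD45, was at 5.66, 228.6 and 3.66 per M on collagen I, against 6.52, 658.8 and 5.09 per M on collagen IV and 4.32 per M in experiment 3 (−0.69 ± 0.34; limma adjusted p = 0.368). Cd3e, a T cell receptor complex chain, had 1.18, 32.6 and 0.417 per M on collagen I, against 0.574, 102.2 and 0.739 per M on collagen IV and 0.738 per M in experiment 3, and its pairs disagreed in sign. Cd8a and Cd4, the co-receptors of cytotoxic and helper T cells, had log2 differences of −0.64 ± 0.31 and −0.55 ± 0.32. In experiment 4, 22 identity markers stood on collagen I at a median of 0.338 times their collagen IV level, with a range of 0.300 to 0.410. These were kept for a low level in 4T1 alone and a minimum level on collagen IV in that experiment. That collagen IV level is also the denominator, so the ratio is a description.

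The effector genes Gzmb and Ifng were low, at most 4.61 per M (Gzmb on collagen IV of experiment 4). Gzmb, the cytotoxic protease granzyme B, had 0.0289, 2.47 and 0.0321 per M on collagen I, against 0.0522, 4.61 and 0.0661 per M on collagen IV and 0.105 per M in experiment 3 (−0.26 ± 0.23; limma adjusted p = 0.598). Ifng, interferon gamma, was at 0.26, 0.456 and 0 per M on collagen I, against 0.0261, 0.567 and 0.0207 per M on collagen IV and 0.0527 per M in experiment 3, below the level needed for testing. The cytotoxic list had 12 tested members with 0 calls in limma and a median of −0.40, and −0.10 over 4 members without experiment 4. The interferon gamma response list, which holds interferon-induced genes such as guanylate-binding proteins, had 0 of 23 calls and a median of −0.37; its mean log2 level differed by 0.04, −0.85 and −0.07 in the 3 pairs. MHC class I presentation had 0 of 21 calls and a median of −0.27, with mean log2 levels that differed by −0.06, −0.74 and 0.04. Cd274, the checkpoint ligand PD-L1, had 2.46, 19.9 and 2.18 per M on collagen I, against 2.45, 48.1 and 2.81 per M on collagen IV and 1.63 per M in experiment 3 (−0.50 ± 0.41; limma adjusted p = 0.575). Its order followed that of the T cell marker sums in experiment 4; the part of T cell RNA in these differences was not tested. Erap1, the peptide-trimming aminopeptidase of the class I pathway, was the exception that passed without experiment 4 (−0.35 ± 0.07; limma adjusted p = 0.0339) after −0.39 ± 0.09 with it (0.0515), and was lower in 3 of 3 pairs. Its exons overlap those of Cast.

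Of 23 cholesterol synthesis genes tested, 20 lay below 0 and none passed as higher on collagen I. The median was −0.16, beside −0.03 over all genes tested. The mean log2 level of the list differed by −0.20, −0.06 and −0.26 in the pairs of experiments 2, 4 and 5. Without experiment 4, Cyp51 and Msmo1, both sterol demethylation enzymes, passed, at −0.47 and −0.48. The desaturases Scd1 (−0.31 ± 0.08) and Scd2 (−0.35 ± 0.10), of the fatty acid list, did not pass, and passed without experiment 4 at −0.41 and −0.49. In 4T1 alone 13 of the 23 sterol genes passed as lower on collagen I and none as higher, where 2.36% of all genes tested passed as lower. Their median there was −0.22, beside 0.0029 over all genes tested.

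**Figure D4:**
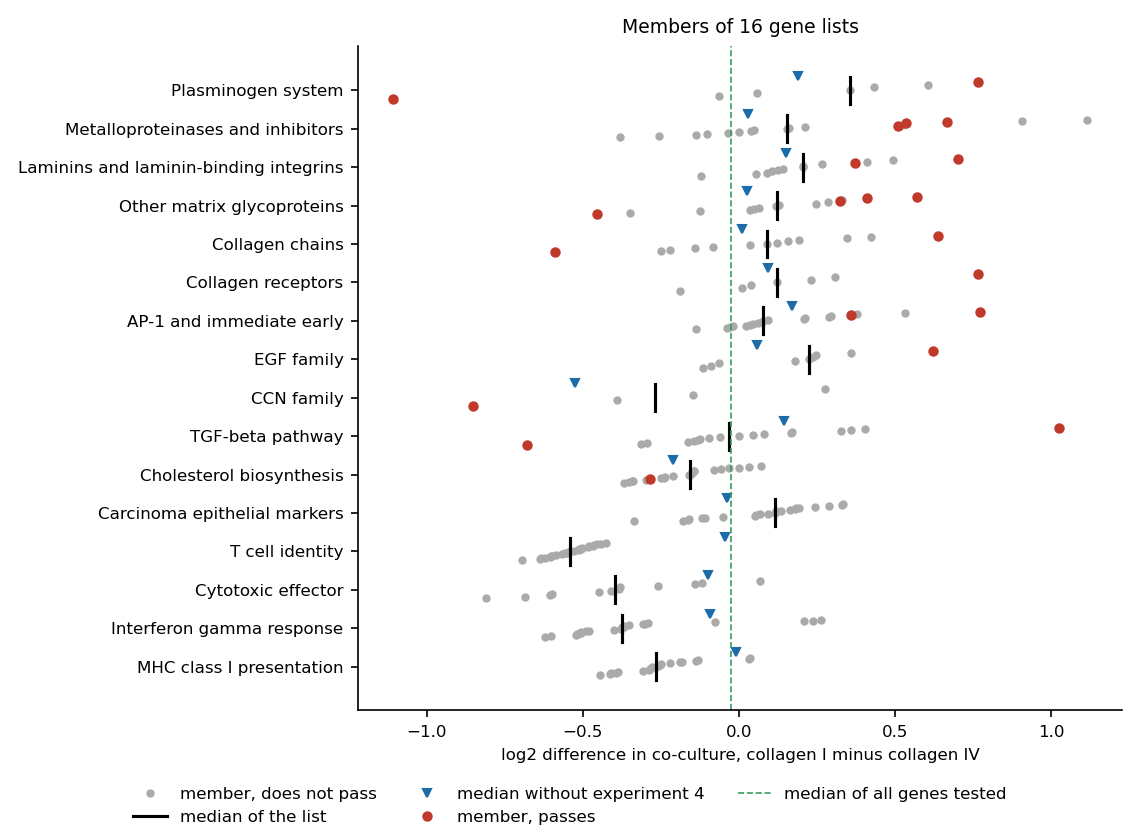
Log2 differences in co-culture, collagen I minus collagen IV, for each tested member of 16 gene lists: red points passed, grey points did not, bars are list medians, triangles the medians without experiment 4 and the dashed line the median of all genes tested (−0.03). The T cell, cytotoxic, interferon and MHC medians lay between −0.54 and −0.27 and moved to −0.10 or nearer 0 without experiment 4, whereas the cholesterol median moved to −0.21.

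The difference between the collagens in co-culture was set beside that in 4T1 alone, whose libraries the co-culture fit did not use. In 4T1 alone 1023 of 13776 genes (7.43%) passed, 698 (5.07%) higher and 325 (2.36%) lower on collagen I. All 121 co-culture genes had the same direction there, against 8204 of the 13662 genes tested in both (60.0%), and 119 of them in 4 of 4 pairs. Of the 121, 114 passed in 4T1 alone (94.2% of the co-culture calls, 11.1% of the 4T1 alone calls). The 7 that did not were Ikzf2, Cuedc1, Arhgef25, Neurl1a, Pkn3, Fhl3 and Cchcr1, named here after their values were seen. The median size of the 121 was 0.46 in co-culture and 0.37 in 4T1 alone, and 97 were larger in co-culture; since they were called in co-culture, that order is a description. Without experiment 3, which has no collagen I co-culture, 457 genes passed in 4T1 alone.

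The test of the difference itself, co-culture minus 4T1 alone, passed 0 of 14701 genes (0%) in limma, with 1358 at an unadjusted p under 0.05, and 0 in edgeR, with 1260. Of the 121, 9 had an unadjusted p under 0.05. Phlda2 had the smallest, with a coat difference of 0.72 in co-culture and 0.37 in 4T1 alone, and an interaction of 0.34 ± 0.12 (limma adjusted p = 0.533). Itgb6 and Loxl3 were also among the 9, at 0.62 and 0.71 in co-culture, against 0.30 for each in 4T1 alone, and Masp1 had −0.59 in co-culture, against −0.84 in 4T1 alone. Among genes whose 3 co-culture pairs share a sign, the smallest p belonged to Avl9, a regulator of secretory traffic (−0.43 ± 0.10; limma adjusted p = 0.533). Avl9 had 31.7, 40.6 and 33.6 per M on collagen I in co-culture, against 32.3, 64.0 and 41.6 per M on collagen IV, and was apart mainly in experiment 4.

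Read the other way, genes called in 4T1 alone kept their direction in co-culture in 2 of the 3 pairs more than in the other. Of the 698 that were higher on collagen I, 678, 467 and 659 were higher in the pairs of experiments 2, 4 and 5, with medians of 0.22, 0.27 and 0.27. Of the 322 lower ones tested in co-culture, 316, 158 and 299 were lower in the same pairs, with medians of −0.19, 0.0027 and −0.19. Experiment 4 thus stood apart from the other pairs in the direction counts of higher and lower genes, and in the median of the lower genes. Over all genes tested the medians were 0.0028, −0.012 and −0.014 in the pairs of experiments 2, 4 and 5. The standard deviation of the pair difference over all genes tested was 0.18 and 0.20 in experiments 2 and 5, against 0.50 in the pair of experiment 4. The T cell marker sum of that pair was 1512 per M on collagen I and 4232 per M on collagen IV; its part in this was not tested.

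**Figure D5:**
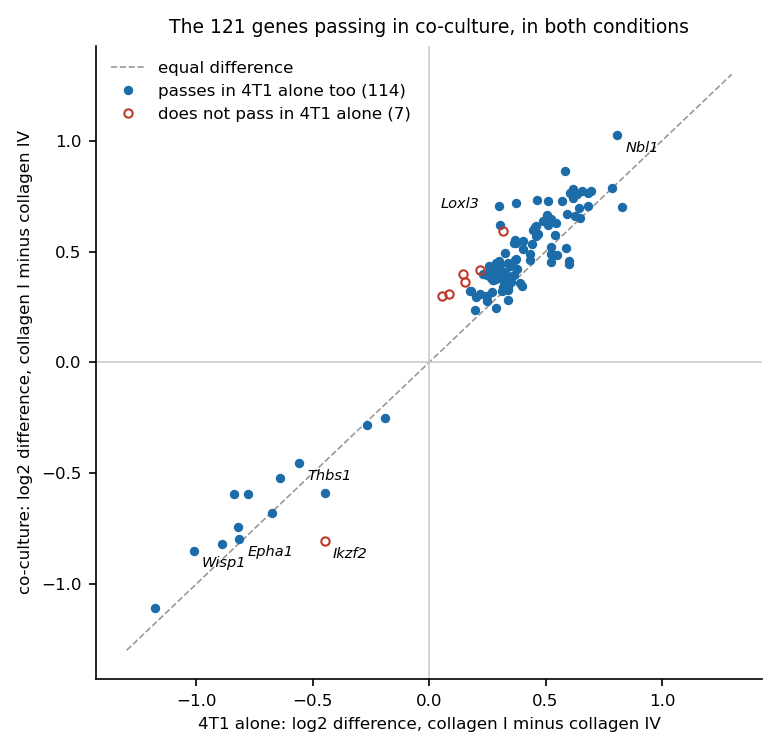
Log2 differences, collagen I minus collagen IV, in 4T1 alone (horizontal) and in co-culture (vertical) for the 121 genes that passed in co-culture; filled points also passed in 4T1 alone (114) and open ones did not (7). Every point lies in the lower left or upper right field, as for Wisp1 (−1.01 and −0.85) and Nbl1 (0.81 and 1.02), and the dashed line marks equal differences.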

How the data were processed

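RNA was read from polyadenylated libraries of co-cultures and of 4T1 alone, single-end, with a kit that does not mark strand. The deposited values are a normalized signal, reads over the scaled library size in mega-reads, made by the authors with STAR 2.6, featureCounts (version not given) and edgeR 3.31.7 on mm10, per the submitters' processing notes. Whole reads could be recovered for 100% of values (tolerance 0.01 read), which gave the depths. From these values log2(per M + 1) was computed, genes that reached 1 per M in fewer than 3 libraries were left out, and group means with an experiment block were fitted with limma 3.58.1 in R 4.3.3, with an intensity trend, over 18 co-cultures. The 4T1 alone libraries had a fit of their own, and the difference of differences was fitted over 40 libraries. Samples were paired by their numbers. Deviations of same-numbered libraries from their group means correlated at 0.883, 0.925 and 0.881 in the pairs of experiments 2, 4 and 5. Between collagen I and collagen IV libraries of different experiments the correlations ranged from −0.833 to 0.689. The labels do not say whether experiments used separate animals, so p-values measure the spread between these libraries, which may be technical. Alternatives used edgeR 4.0.16 and DESeq2 1.42.0 on recovered reads, other scalings, filters, pseudocounts and left-out libraries, and scripts were tested on simulated data. Genes and lists were chosen with earlier results of these data known. Named genes are the 12 largest changes in each direction among called genes of at least 5 per M, called or leading members of the lists described, 16 genes always given and up to 6 with the smallest interaction p; other names were chosen after their values were seen. Of 21349 lines, 21347 genes were kept; 1 repeated symbol and 1 gene with a cell that was no number were set aside, and 19 symbols had been turned into dates. Of the 120 called genes with a single location in GENCODE M21, 35 share exon sequence with another gene, and their reads cannot be told apart. Some results that the naming rule covers are not reported here.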

Additional observations from a re-analysis of the deposited data

Results flagged for a closer look

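In the 4 collagen IV co-cultures, 1 library lay far from the other 3 for 15 of 47 values tested (a gap, as a share of the range, past Dixon's 95% critical value for 4 samples, which chance gives in about 1 in 20 groups). These values are not separate tests, so their count cannot be set against 1 in 20. For 13 of the 15 the library was experiment 4, the one with most T cell RNA. The T cell identity sum was 4232 per M there, the B cell sum 148.8, the natural killer sum 1.77, the granulocyte sum 7.69, the erythroid and platelet sum 51.7, the fibroblast sum 149.4 and the endothelial sum 75.6 per M. The fibroblast list shares Thy1 with the T cell list, and the endothelial list holds only 2 measured markers, so neither sum identifies a cell type. The genes were Ptprc at 658.8, Cd3e at 102.2, Gzmb at 4.61, Ifng at 0.567, Cd274 at 48.1 and Ikzf2 at 17.1 per M. The collagen I library of experiment 4 was the highest of its 3 in each of these lists and genes. In experiment 2, Nbl1 stood apart at 9.63 per M. In experiment 5 the depth did, at 239.1 M reads.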

How the results depend on the processing

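The 121 co-culture calls kept their direction under every alternative in which they were tested, and no called value reversed. The calls depended on a term for the experiment. Without the replicate block 0 passed in limma over 18 co-cultures (402 at an unadjusted p under 0.05) and 0 over the 7 collagen libraries (147). With the experiment as a random effect instead of that block, 149 passed (131 higher, 18 lower), among them 100 of the 121. With the block in the 6 paired libraries alone 0 passed (624). All 40 libraries gave 705 (479 higher, 226 lower) and DESeq2 321 (239 higher, 82 lower). Quantile normalization gave 63, no filter 69 and scaling to carcinoma markers 39 (28 higher, 11 lower), which moved the median of all genes to −0.0934. Under that scaling Ddx41, Jun, Vgll4, Itgb6, Ikzf2, Ltbp2, Lamb3, Mfge8, Tgfb2, Loxl3, Thbs1 and Mmp11 did not pass (limma adjusted p = 0.056 to 0.701). Without experiment 2, 24 passed and without experiment 5, 0 (1676 at an unadjusted p under 0.05); leaving out single libraries gave 18 to 573. The T cell score as a covariate gave 99 (73 higher, 26 lower). Alternatives chosen after seeing the data, both without experiment 4, gave 130 with edgeR and 136 with marker scaling. In 4T1 alone the 1023 calls became 105 without the block, 457 without experiment 3, 470 without experiments 1 and 3 (chosen after seeing the data) and 527 to 1226 without single libraries. The interaction had 0 calls in limma throughout, with 43 at an unadjusted p under 0.05 without the block and 214 without experiment 4. The cause of these shifts was not tested. T cell genes near the limit of 0.0124 to 0.158 per M are bounded by depth.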

Other observations

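Genes of cell protrusion and membrane signalling outside the lists above also passed, and were named after their values were seen. Of 15 Eph receptors and ephrins tested, the ligands Efna1 and Efnb1 rose on collagen I while the receptor Epha1 fell, with a family median of 0.23. Efna1 had 32.4, 32.3 and 34.8 per M on collagen I, against 27.8, 15.9 and 24.9 per M on collagen IV in experiments 2, 4 and 5 and 28.5 per M in experiment 3 (0.55 ± 0.12; limma adjusted p = 0.0465). Efnb1 had 83.8, 31.7 and 33.3 per M on collagen I, against 62.9, 24.2 and 24.6 per M on collagen IV and 56.1 per M in experiment 3 (0.40 ± 0.08; limma adjusted p = 0.0371). Efna1 did not overlap between coats and Efnb1 did. Myo10, a motor of filopodial tips, had 156.9, 98.6 and 92.5 per M on collagen I, against 111.1, 70.8 and 69.1 per M on collagen IV and 93.9 per M in experiment 3 (0.46 ± 0.05; limma adjusted p = 0.00174). Of 9 subunits of the actin-branching Arp2/3 complex, Arpc1b (0.30 ± 0.05) and Arpc5 (0.25 ± 0.05) passed as higher and none as lower. The median of the 9 was 0.08, and Actr3 (−0.09) and Arpc5l (−0.05) lay below 0. Over all genes tested 0.835% passed. Since both families were chosen after the calls were seen, their counts are descriptions. Sh3pxd2a, a scaffold of invadopodia, rose by 0.28 ± 0.06. Igfbp4, which binds insulin-like growth factors, had 501.2, 459.8 and 609.6 per M on collagen I, against 368.0, 260.7 and 394.7 per M on collagen IV and 388.6 per M in experiment 3 (0.63 ± 0.09; limma adjusted p = 0.00746). Without experiment 4, Epha1, Myo10, Arpc1b and Igfbp4 passed, and Efna1, Efnb1, Arpc5 and Sh3pxd2a did not.

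In experiment 4 the ratio between the coats was not the same for all genes that were high in co-culture. Relative to collagen IV, the collagen I level was 0.347 for Ptprc and 0.344 for the immunoglobulin gene Ighm, but 0.0903 for Xist (19.0 per M on collagen I, 211.0 on collagen IV) and 0.118 for the globin gene Hbb-bs (1.529 per M on collagen I, 13.0 on collagen IV). In the other co-cultures of experiment 4, Xist was at 60.0 to 90.7 per M and Hbb-bs at 3.38 to 5.87 per M, between both collagens. Ptprc was at 212.9 to 276.5 per M and Ighm at 42.7 to 54.3 per M in those co-cultures. Collagen I lay within these ranges (228.6 and 45.7 per M), and collagen IV lay above them (658.8 and 133.0 per M). Malat1 had a ratio of 0.265 (109.0 per M on collagen I, 410.6 on collagen IV). It was also read in 4T1 alone of experiment 4, at 91.3 per M on collagen I and 67.7 on collagen IV. Its ratio is therefore not comparable with those of the other genes here.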
